A study of Homo sapiens with 192 samples.

Results

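The complement factors and membrane regulators described here are 9 genes of the 58243 listed, namely C3, CFB, C1R, CFI, C4BPB, CLU, CD46, CD55 and CD59. The members were chosen by name as complement genes, and CFB was picked for its higher level in HT29 grown in 3D, so its HT29 values are given as a description, with no test. Human colorectal cancer (CRC) cells of 4 lines (HT29, LS513, HCT116, LS174T) were cultured either in 2D or in 3D, without any drug, which gave 8 groups of 3 libraries. Poly(A) RNA of these lines was sequenced to ask how growth conditions change gene expression. The microsatellite stable lines are HT29 and LS513, the other 2 are microsatellite instable, and HCT116 was kept in another medium than the other lines, so line and medium cannot be told apart. Each line is a single established culture of tumour cells, with no liver, stromal or immune cells added.

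Complement is a cascade of blood and tissue proteins that tags cells with fragments of C3 and can open pores in their membranes. C1R is a protease that starts the classical pathway, while CFB supplies the protease of the alternative pathway and C3 is the protein that the pathways meet at. Host cells are shielded by regulators. At the cell surface CD55 acts on the C3-cleaving enzymes, CD46 is a cofactor with which CFI cuts C3b, and CD59 blocks the final pore. CFI, the C4b-binding protein (with the C4BPB chain) and clusterin (CLU) are proteins of the fluid phase. Epithelial tumour cells are known to carry the surface regulators.

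Library totals ranged from 18723942 to 34277421 counts (median 30777613). A floor of 3 counts in a library, which is 0.0875 to 0.16 CPM (a gene's counts relative to the scaled total of its library), was taken as the limit of detection. CPM values are on the TMM scale. The floor covers counting error alone, while the SE and 95% intervals of fold changes come from the fit and include the spread between libraries. Of the 7 colorectal epithelium markers, 7 were above the floor in each of the 8 groups, with a summed level of 2809 to 16945 CPM. Some were low in single lines. In HCT116 VIL1 was at 0.223 ± 0.0691 CPM in 2D and 0.209 ± 0.0809 CPM in 3D (SD). KRT20 was at 0.646 ± 0.0372 CPM in HCT116 and 0.817 ± 0.208 CPM in LS174T, both grown in 2D. The leukocyte markers PTPRC and CD3E and the fibroblast markers COL3A1 and DCN were at or under the floor in the libraries of every group. Other markers of such cells were above it in some groups. The fibroblast marker COL1A1 was at 14.1 ± 0.95 CPM (SD) in HCT116 grown in 2D. In 3D, the leukocyte marker CD68 was at 78 ± 15.2 CPM in LS513 and CD14 at 12.6 ± 2.53 CPM in HT29. The endothelium marker PECAM1 was at 2.07 ± 0.298 CPM in HT29 grown in 3D. The 3 hepatocyte markers, which mark the main source of blood complement, summed to at most 0.903 CPM. LYZ, the lysozyme gene counted among the 5 leukocyte markers, was abundant in HT29, where these markers summed to 1327 to 1435 CPM in 2D and 2435 to 2686 CPM in 3D.

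Promoter sequences were matched for 7 of the 9 members, from RefSeq on GRCh38.p14, in 14 windows of 250 bases before a start site. These windows are shown as a description, and a link between their motifs and the growth effects was not tested. Both strands were searched for the interferon-stimulated response element core GAAANNGAA, the gamma-activated site TTCNNNGAA, the hypoxia response element core ACGTG and an NF-kB site. The gamma-activated site reads the same on both strands, and the matches found here did not overlap each other. Of 34943 windows of this length, 6.87% held the response element core, 6.56% the gamma-activated site, 5.2% the NF-kB site and 18.5% the hypoxia core. These shares are per window, whereas some members had several windows, in part overlapping, so they are not shares of genes. CFB, CD59, C1R and C4BPB each held a gamma-activated site in at least 1 window, CFB and C4BPB also held the response element core, CD59 held the hypoxia core in 1 further window, and none of the members' windows held the NF-kB site. The stretches of 30 bases around the matches are printed 5′ to 3′ on the gene's strand, with the match in capitals. The response element core lies on the other strand in both genes that held it.
CFB gamma-activated site, chr6:31945993-31946022, plus strand: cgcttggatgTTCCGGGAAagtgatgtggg
CD59 gamma-activated site, chr11:33736588-33736617, minus strand: ccacccggccTTCTCAGAAcctgggccagg
C1R gamma-activated site, chr12:7091960-7091989, minus strand: gccagtcctaTTCCTGGAAggggaggggag
C4BPB gamma-activated site, chr1:207089230-207089259, plus strand: tggatttgcaTTCCCAGAAaccaggaaatt
CFB response element core, chr6:31945946-31945975, plus strand: cttctgcagtTTCTGTTTCcttgactggca
C4BPB response element core, chr1:207089075-207089104, plus strand: tgacagcccgTTCTCTTTCcccagtgctgg

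In CFB the gamma-activated site lay 92 to 84 bases before the start site and the response element core 139 to 131 bases before it. The CFB, C1R and C4BPB gamma-activated sites also lay in exons of longer GENCODE 29 transcripts, while the CD59 site lay outside annotated exons of the members. The wider sequence upstream of CD59 and of CD46 is shown for comparison. The capitals mark the gamma-activated site, and the CD46 sequence held none of the 4 motifs. A match is a description of letters and says nothing about binding.
CD59 upstream, chr11:33736492-33736729, minus strand: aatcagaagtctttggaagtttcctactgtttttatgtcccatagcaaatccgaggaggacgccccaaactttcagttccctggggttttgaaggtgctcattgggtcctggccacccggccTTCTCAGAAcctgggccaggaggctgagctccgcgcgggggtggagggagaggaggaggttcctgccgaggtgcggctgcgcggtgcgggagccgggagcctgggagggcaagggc
CD46 upstream, chr1:207751788-207752037, plus strand: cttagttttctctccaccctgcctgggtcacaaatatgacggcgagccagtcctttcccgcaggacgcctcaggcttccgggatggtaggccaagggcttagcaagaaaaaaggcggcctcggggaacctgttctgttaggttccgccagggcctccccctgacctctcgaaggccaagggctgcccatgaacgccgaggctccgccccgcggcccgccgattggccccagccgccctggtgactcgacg

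The members differed in level by orders of magnitude, with CD46, CD55 and CD59 well above C3 and CFI in each of the 8 groups. CD46 ranged from 90.9 to 614 CPM over the 24 libraries, CD59 from 78.9 to 274 CPM and CD55 from 14.5 to 305 CPM. At the other end, CFI had at most 13 counts in any library and C3 at most 30 counts. Compared per kilobase (kb) of exon, CD55 led in HT29 grown in 2D at 45.8 CPM per kb, followed by CD46 at 30.4 and CD59 at 21.2 CPM per kb. CD46 led in LS513 grown in 2D at 65.6 CPM per kb and in LS174T at 34.8 CPM per kb. In HCT116 grown in 2D, CLU led at 41.1 CPM per kb, ahead of CD46 at 11.2 CPM per kb. C3 was at 0.0195 CPM per kb in HT29 grown in 2D and CFB at 0.137 CPM per kb. With the length of the longest transcript in place of the union of exons, CLU led LS513 grown in 3D and 5 of the 9 members kept their place there. By that length CD59 also went from rank 3 to rank 4 in HCT116 grown in 2D and CD46 from rank 3 to rank 4 in HCT116 grown in 3D, so the order of the surface regulators depends on the length used.

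**Figure D1:**
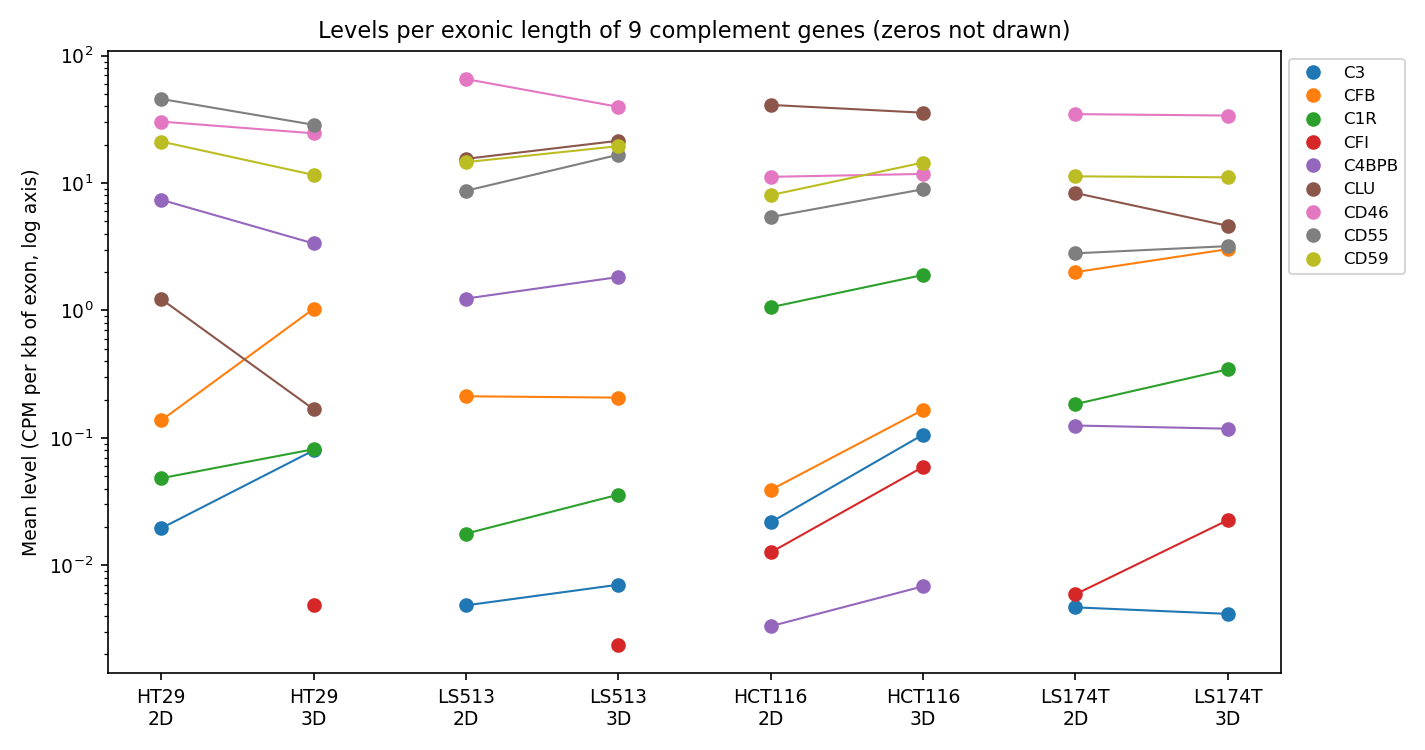
Mean level of the 9 genes (CPM per kb of exon, log axis) in each line and growth condition, with lines joining 2D and 3D of one cell line. By this length CD46 and CD59 are among the top 3 in each group (by the longest transcript CD59 is at rank 4 in LS513 grown in 3D and HCT116 grown in 2D, and CD46 in HCT116 grown in 3D), whereas CLU runs from 41.1 CPM per kb in HCT116 grown in 2D to 0.168 CPM per kb in HT29 grown in 3D.

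The lines differed from each other in 2D for most tested members. Between HT29 and LS513, 6 of 7 members passed an adjusted p of 0.05 (60.6% of all tested genes did), between HT29 and HCT116 6 of 7 (68.8%), and between HT29 and LS174T 6 of 7 (64.6%). These counts leave out CFB, which was picked on HT29. Between LS513 and HCT116 8 of 8 passed (68.3%), between LS513 and LS174T 7 of 8 (57.6%), and between HCT116 and LS174T 8 of 8 (68.3%). C3, with 0 to 7 counts in the 2D libraries, passed between HT29 and LS174T, LS513 and HCT116, and HCT116 and LS174T. It entered the fit only through 3D libraries, so its place in these counts supports nothing. Since most of all genes passed in each pair, these counts single out nothing about complement.

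Across all tested genes, 21.1% were called higher and 19.6% lower in 3D in HT29. In HT29, 1 of the 7 tested members other than CFB was higher (C3) and 5 were lower (C4BPB, CD46, CD55, CD59 and CLU). Their median log2 fold change was -0.67, against 0.00 over all tested genes. In LS513, where 13.7% of genes were called higher and 9.9% lower, 2 of 8 members were higher (CD55 and CD59) and 1 was lower (CD46). In HCT116, with 16.8% higher and 12.3% lower over all genes, 5 of 8 were higher (C3, CFB, CD55, CD59 and C1R) and 0 were lower in the edgeR fit. C3 passed the low-count filter only through its HT29 and HCT116 3D libraries, so its place in these counts and medians was set by the filter and supports nothing. In LS174T, with 13.1% higher and 9.15% lower, 1 member was higher (C1R) and 1 lower (CLU). The medians over members were 0.46 in LS513, 0.84 in HCT116 and -0.03 in LS174T, against 0.00, 0.01 and 0.02 over all tested genes. They include fitted values of C4BPB in HCT116 and of C3 in LS174T, which were at or under the floor in both growth conditions. The labels do not say whether the 3 libraries of a group came from separate cultures, so p-values measure only the spread between these libraries. In such bulk RNA, fewer expressing cells and less RNA per cell cannot be told apart. With 3 libraries against 3, an exact permutation test of a single gene cannot give a p under 0.1, so the tests are those of edgeR's quasi-likelihood fit with Benjamini-Hochberg adjustment over 19387 genes.

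**Figure D2:**
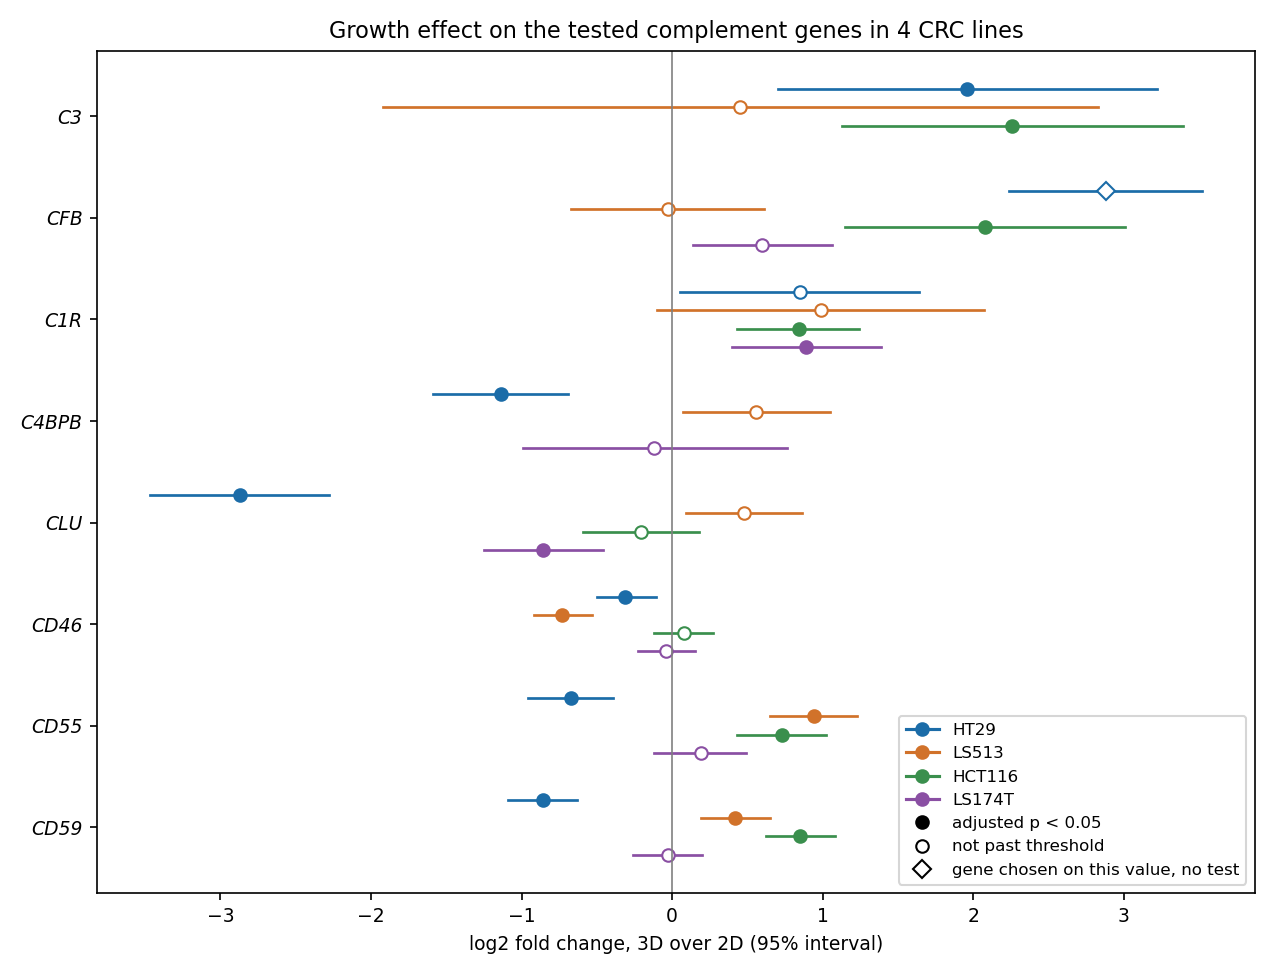
Log2 fold change of 3D over 2D with its 95% interval for the 8 tested members in each line. Filled circles passed an adjusted p of 0.05, and the open diamond marks CFB in HT29, which has no test because the gene was picked on it. HT29 lies left of zero for CD46, CD55, CD59, CLU and C4BPB, while HCT116 lies right of zero for CD55 and CD59.

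The 2 alternative pathway components are C3, on chromosome 19 (6677704 to 6730562, minus strand), and CFB, on chromosome 6 (31945650 to 31952084, plus strand), both protein-coding. These positions and those below are from GENCODE 29 on GRCh38.

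C3 (ENSG00000125730) held more counts in 3D than in 2D in HT29 and HCT116, at very low levels. It passed the low-count filter only through the 3D libraries of these lines, so its growth effect within a line is tested here by the fit with no low-count filter. The adjusted p-values of that edgeR fit are not comparable with those given for the other genes. In HT29 it gave 2.7e-59 for CLU, against 4.3e-08 with the filter, and 0.093 for CD46, against 0.012. The HT29 libraries held 7, 4 and 2 counts in 2D and 24, 23 and 13 counts in 3D. The HT29 growth conditions did not overlap, and C3 was 3.88-fold higher in 3D (log2 fold change 1.96, SE 0.61). Without the filter the log2 fold change was 2.00 (adjusted p = 0.0013, edgeR), and with the filter and a replicate block the adjusted p was 0.072. In HCT116 the counts were 7, 7 and 4 in 2D and 30, 22 and 28 in 3D. These groups did not overlap either, and C3 was 4.79-fold higher (log2 fold change 2.26, SE 0.55), or 2.23 on the log2 scale without the filter (adjusted p = 8.6e-05, edgeR). The LS513 libraries held 0 to 4 counts in both conditions, and in LS174T no library exceeded 2 counts, so a change was not detectable at this depth. Because of the filter, no test between lines is given for C3. In 2D the log2 ratio of HT29 over HCT116 was -0.10 (SE 0.69).

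CFB (ENSG00000243649) was most abundant in LS174T and rose in 3D in HCT116. In HT29 it was at 0.892, 0.619 and 0.548 CPM in 2D and 5.1, 5.77 and 4.64 CPM in 3D, which is 7.35-fold higher (log2 fold change 2.88, 95% interval 2.24 to 3.52, no test). The HT29 conditions lay wide apart, which is what the gene was picked for. In HCT116 CFB was at 0.0906, 0.173 and 0.321 CPM in 2D and 1.3, 0.751 and 0.435 CPM in 3D. The 3D libraries were above the 2D ones, and CFB was 4.24-fold higher (log2 fold change 2.08, SE 0.45, adjusted p = 0.00063, edgeR). In LS174T the level was 9.63, 10.1 and 10.3 CPM in 2D and 14.2, 17.6 and 13.7 CPM in 3D. These libraries did not overlap, but the log2 fold change of 0.60 (SE 0.22) missed the threshold (adjusted p = 0.055, edgeR). It passed with every gene that had a count (0.017) and with DESeq2 (0.018). In LS513 CFB was at 1.29, 0.937 and 0.95 CPM in 2D and 1.27, 1.21 and 0.624 CPM in 3D, and the ranges overlapped (log2 fold change -0.03, 95% interval -0.67 to 0.61).

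Among LS513, HCT116 and LS174T, the growth effect on CFB differed (adjusted p = 0.03, edgeR), where 8.38% of all genes did. LS513 minus HCT116 was -2.12 on the log2 scale (SE 0.55, adjusted p = 0.018), while HCT116 minus LS174T was 1.48 (SE 0.50) and missed the threshold (adjusted p = 0.08, edgeR). Without HCT116_2D replicate 1 the adjusted p of the 3-line test was 0.11, and without HCT116_3D replicate 1 it was 0.12. Without LS513_2D replicate 1 it was 0.067, without HCT116_2D replicate 2 0.086, and without HCT116_3D replicate 2 0.051. In 2D, LS174T was above LS513 (log2 ratio of LS513 over LS174T -3.24, adjusted p = 2.4e-10) and LS513 above HCT116 (log2 ratio 2.43, adjusted p = 9.2e-06).

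CFB shares 2249 exonic bases, 45% of its own, with AL645922.1 (ENSG00000244255), a protein-coding gene annotated on the same strand. Summed over the 24 libraries, CFB held 3215 counts and AL645922.1 3671 counts. In HT29 grown in 3D the CFB counts were 169, 167 and 128 and those of AL645922.1 167, 161 and 123, which is close to equal. In LS513 grown in 2D CFB held 40, 31 and 30 counts and AL645922.1 120, 106 and 125 counts, so the overlapping gene was above CFB there. C2, the classical pathway relative of CFB, was at 4.07 ± 0.623 CPM (SD, n = 3) in LS513 grown in 2D and at 0.11 ± 0.113 CPM in HT29 grown in 2D. With the counts of AL645922.1 in place of those of CFB, the log2 fold change was 1.86 in HCT116 (adjusted p = 0.00018, edgeR), -0.39 in LS513 (adjusted p = 0.25) and 0.64 in LS174T (adjusted p = 0.031). In LS174T grown in 2D the counts were also close, at 322, 354 and 347 for CFB and 318, 351 and 337 for AL645922.1. Reads on the shared exons cannot be assigned to one of the genes, so the AL645922.1 fold changes are no independent check of CFB. Whether such reads were counted for both genes or dropped is not given in the sources used here, so the CFB level is uncertain.

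**Figure D3:**
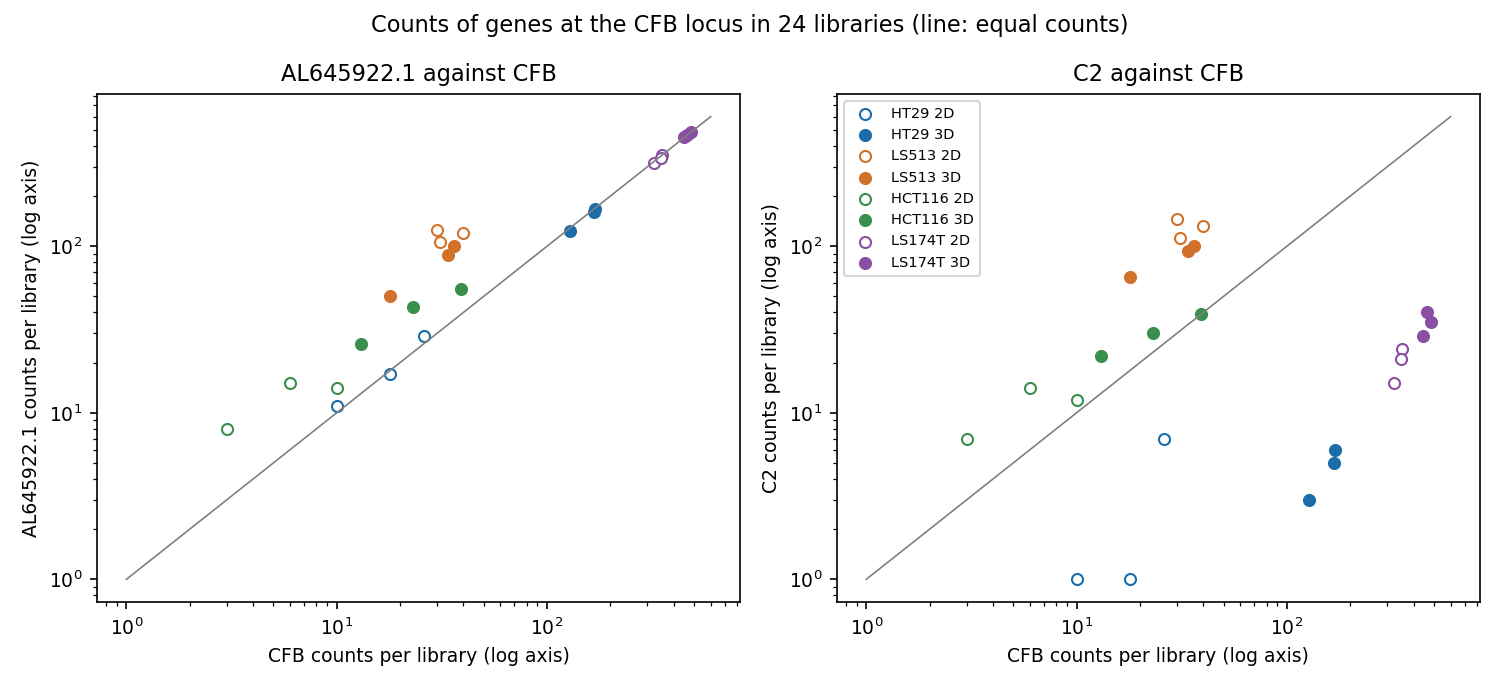
Counts per library of AL645922.1 and of C2 against CFB (log axes, open 2D and filled 3D, grey line at equal counts). HT29 and LS174T lie near the line for AL645922.1, and LS513 lies above it in both panels.

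C1R (ENSG00000159403), on chromosome 12 (7080199 to 7092607, minus strand), encodes a protease of the classical pathway, and it rose in HCT116 and LS174T. In HCT116 it was at 6.34, 5.81 and 6.61 CPM in 2D and 13.1, 11.9 and 8.56 CPM in 3D. The libraries did not overlap, and C1R was 1.79-fold higher (log2 fold change 0.84, SE 0.20, adjusted p = 0.0026, edgeR). In LS174T it was at 0.987, 1.22 and 1.04 CPM in 2D and 1.81, 2.84 and 1.44 CPM in 3D. C1R was 1.86-fold higher there without overlap (log2 fold change 0.89, SE 0.24, adjusted p = 0.01, edgeR). The call ended without LS174T_3D replicate 2 (adjusted p = 0.11) and with the line fitted alone (0.08). In HT29 the counts were 6, 6 and 8 in 2D and 17, 11 and 15 in 3D (log2 fold change 0.85, adjusted p = 0.075, edgeR). In LS513 the counts were 2, 4 and 4 in 2D and 6, 6 and 6 in 3D (log2 fold change 0.99, adjusted p = 0.18, edgeR). Neither of these passed the threshold, and the growth conditions overlapped in CPM in HT29 but not in LS513. The growth effect on C1R did not pass the test for a difference between the lines (adjusted p = 1, edgeR), and LS513 minus HCT116 was 0.15 with a 95% interval of -1.01 to 1.31. C1R shares 11.4% of its exonic bases with C1RL on the same strand, and C1RL held more counts in every library. C1RL was itself higher in 3D, by 1.13 on the log2 scale in HCT116 and 0.37 in LS174T. Reads on the shared bases cannot be assigned to one of these genes, and their part in the C1R values was not tested. In 2D the order was HCT116, LS174T, HT29 and LS513, and each neighbour passed (log2 ratio of HCT116 over LS174T 2.52, of HT29 over LS174T -2.01 and of HT29 over LS513 1.31, the last with adjusted p = 0.025, edgeR).

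The fluid-phase regulators followed no common pattern. CFI (ENSG00000205403), on chromosome 4 (109740694 to 109802179, minus strand), cuts C3b together with cofactors such as CD46. It was left untested by the low-count filter, and 19 of the 24 libraries were at or under the floor. HCT116 grown in 3D held 8, 5 and 13 counts, and the HCT116 libraries grown in 2D held 1, 2 and 3 counts. LS174T grown in 3D held 4, 4 and 2 counts, against 0, 2 and 1 in 2D.

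C4BPB (ENSG00000123843), on chromosome 1 (207088842 to 207099993, plus strand), encodes the beta chain of the C4b-binding protein, which slows the classical pathway. It was highest in HT29, where it fell in 3D. In HT29 it was at 20.9, 32.1 and 18.5 CPM in 2D and 10.3, 11.1 and 11 CPM in 3D. The conditions did not overlap, and C4BPB was 2.21-fold lower in 3D (log2 fold change -1.14, SE 0.22, adjusted p = 0.00029, edgeR). In LS513 it was at 4.89, 3.96 and 3.14 CPM in 2D and 5.6, 7.42 and 4.64 CPM in 3D, with overlap (log2 fold change 0.56, adjusted p = 0.09, edgeR). LS174T ranged from 0.245 to 0.583 CPM in both conditions, and no HCT116 library held more than 1 count. The growth effect differed between the lines (adjusted p = 0.004, edgeR), with HT29 minus LS513 at -1.70 (SE 0.32, adjusted p = 0.00083). HT29 minus LS174T was -1.03 (SE 0.48, adjusted p = 0.24) and HT29 minus HCT116 -2.02 (SE 1.96, adjusted p = 0.58), and neither passed. Over LS513, HCT116 and LS174T the adjusted p was 0.67 (edgeR). In 2D, HT29 was above LS513 (log2 ratio 2.58, adjusted p = 1.3e-09, edgeR) and LS513 above LS174T (3.30, adjusted p = 2.2e-09). C4BPA, the alpha chain of the same protein, was at 2.45 ± 0.352 CPM in HT29 grown in 2D and 1.83 ± 0.455 CPM in 3D (log2 fold change -0.41, adjusted p = 0.28).

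CLU (ENSG00000120885), on chromosome 8 (27596917 to 27615031, minus strand), encodes clusterin, a secreted chaperone that also binds the terminal complement proteins. It was highest in HCT116 and lowest in HT29, and it fell in 3D in HT29 and LS174T. In HT29 it was at 6.96, 11.8 and 5.64 CPM in 2D and 1.42, 0.864 and 1.05 CPM in 3D. The conditions lay apart, and CLU was 7.33-fold lower in 3D (log2 fold change -2.87, SE 0.29, adjusted p = 4.3e-08, edgeR). In LS174T it was at 70.9, 40.6 and 54.4 CPM in 2D and 27.3, 38 and 26.2 CPM in 3D. CLU was 1.81-fold lower there without overlap (log2 fold change -0.86, SE 0.19, adjusted p = 0.003, edgeR). With LS174T fitted alone the adjusted p was 0.056. In LS513 it was at 107, 107 and 92.7 CPM in 2D and 148, 151 and 128 CPM in 3D. The 3D libraries were above the 2D ones, but the log2 fold change of 0.48 missed the threshold (adjusted p = 0.068, edgeR). It passed with LS513 fitted alone (0.0044) and with all genes tested (0.0011). In HCT116 it was at 282, 260 and 275 CPM in 2D and 226, 237 and 244 CPM in 3D (log2 fold change -0.21, adjusted p = 0.44, edgeR). The growth effect differed between the lines (adjusted p = 1.2e-06, edgeR), and HT29 minus LS513 was -3.35 (SE 0.34, adjusted p = 3.5e-07). In 2D, HCT116 was above LS513, LS513 above LS174T and LS174T above HT29, each pair past the threshold (log2 ratio of HT29 over LS174T -2.74, adjusted p = 5.3e-11, edgeR).

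**Figure D4:**
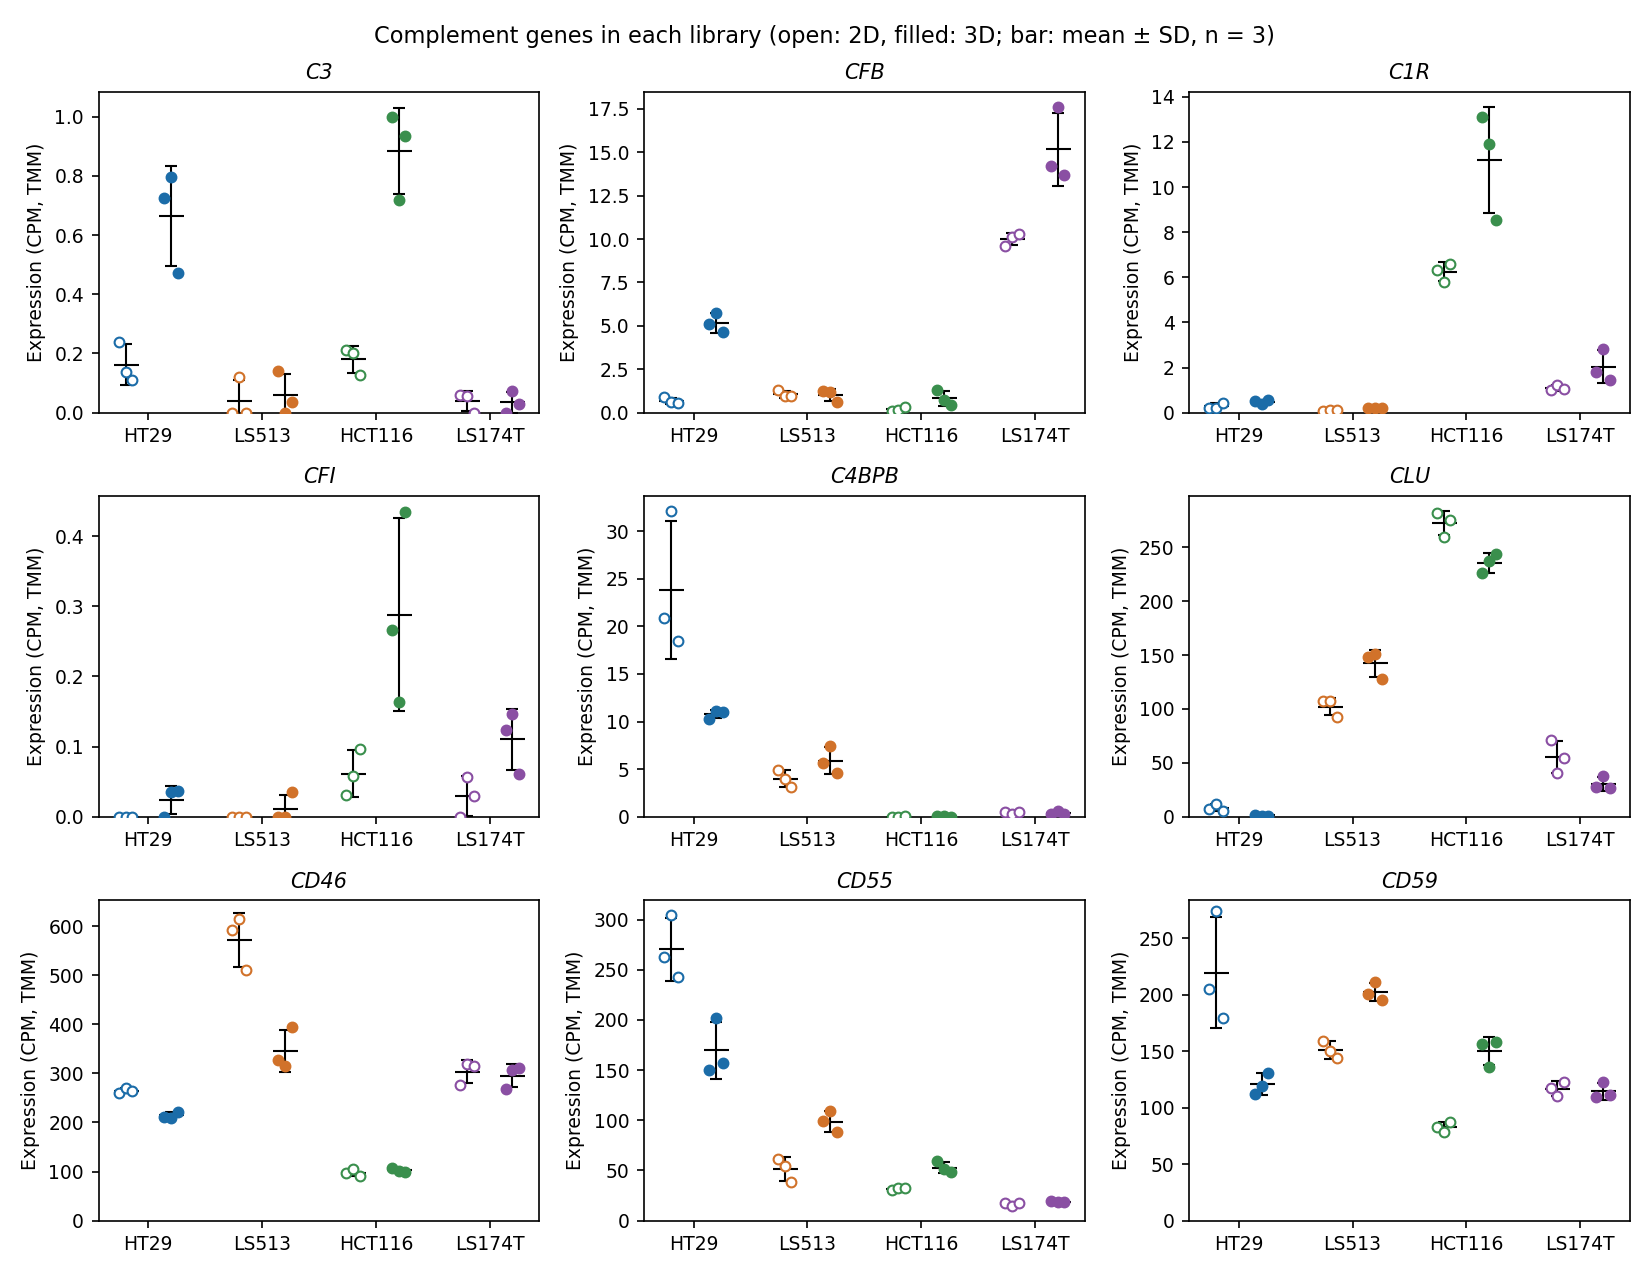
Expression (CPM on the TMM scale, linear axes) of the 9 genes in each library, with the mean and SD of 3 libraries, open for 2D and filled for 3D. CD55 and CD59 fall from 2D to 3D in HT29 and are higher in 3D in LS513 and HCT116, and CFB is highest in LS174T.

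The 3 membrane regulators were each expressed in all 24 libraries, and CD55 and CD59 moved in opposite directions in HT29 and in LS513 or HCT116. CD46 and CD55 lie on chromosome 1, at 207752057 to 207795513 and 207321376 to 207386804, both on the plus strand. CD59 lies on chromosome 11 at 33703010 to 33736491, on the minus strand.

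CD55 (ENSG00000196352), which encodes decay-accelerating factor, takes apart the C3-cleaving enzymes. In HT29 it was at 263, 305 and 243 CPM in 2D and 150, 202 and 157 CPM in 3D. The 3D libraries were below the 2D ones, and CD55 was 1.6-fold lower (log2 fold change -0.67, SE 0.14, adjusted p = 0.00053, edgeR). In LS513 it was at 61.7, 54.1 and 38.5 CPM in 2D and 99, 109 and 88.1 CPM in 3D. CD55 was 1.92-fold higher there without overlap (log2 fold change 0.94, SE 0.14, adjusted p = 3.4e-05, edgeR). In HCT116 it was at 30.7, 32.2 and 32.9 CPM in 2D and 59.3, 51.1 and 48.2 CPM in 3D. It was 1.65-fold higher without overlap (log2 fold change 0.73, SE 0.14, adjusted p = 0.00054, edgeR). In LS174T it was at 18.1, 14.5 and 17.2 CPM in 2D and 19.1, 18.6 and 18.9 CPM in 3D. The LS174T libraries did not overlap, but the difference did not pass (log2 fold change 0.19, 95% interval -0.12 to 0.49, adjusted p = 0.39, edgeR).

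The growth effect on CD55 differed between the lines (adjusted p = 1.1e-05, edgeR). HT29 minus LS513 was -1.62 (SE 0.20, adjusted p = 5.1e-06) and HT29 minus HCT116 -1.40 (SE 0.20, adjusted p = 4.1e-05). LS513 minus HCT116 was 0.22, with a 95% interval of -0.20 to 0.63, and did not pass (adjusted p = 0.71, edgeR). In 2D the order was HT29, LS513, HCT116 and LS174T, with each neighbour past the threshold, at log2 ratios of 2.40, 0.69 and 0.94 (adjusted p = 8.6e-13, 0.00017 and 4.4e-06, edgeR). HT29 grown in 3D, although lower than in 2D, was still above every library of the other lines, the highest of which held 109 CPM.

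CD59 (ENSG00000085063) encodes protectin, which stops the membrane pore from forming. In HT29 it was at 205, 274 and 179 CPM in 2D and 112, 119 and 131 CPM in 3D. The conditions did not overlap, and CD59 was 1.82-fold lower in 3D (log2 fold change -0.86, SE 0.11, adjusted p = 3e-06, edgeR). In LS513 it was at 159, 150 and 144 CPM in 2D and 201, 211 and 195 CPM in 3D. It was 1.34-fold higher there without overlap (log2 fold change 0.42, SE 0.11, adjusted p = 0.0078, edgeR). In HCT116 it was at 83.3, 78.9 and 87.6 CPM in 2D and 156, 136 and 158 CPM in 3D. CD59 was 1.8-fold higher without overlap (log2 fold change 0.85, SE 0.11, adjusted p = 6.7e-06, edgeR). In LS174T the libraries ran from 109 to 123 CPM in both conditions and overlapped (log2 fold change -0.03, 95% interval -0.26 to 0.20).

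The growth effect on CD59 differed between the lines (adjusted p = 4.2e-07, edgeR). HT29 minus HCT116 was -1.71 (SE 0.16, adjusted p = 1.6e-07) and HT29 minus LS513 -1.28 (SE 0.16, adjusted p = 5.3e-06). HT29 minus LS174T was -0.84 (SE 0.16, adjusted p = 0.0016). LS513 and HCT116 did not differ past the threshold (LS513 minus HCT116 -0.43, adjusted p = 0.14, edgeR). In 2D the order was HT29, LS513, LS174T and HCT116, and each neighbour passed, with log2 ratios of 0.54 for HT29 over LS513, 0.38 for LS513 over LS174T and -0.49 for HCT116 over LS174T (adjusted p = 0.0002, 0.0057 and 0.0005, edgeR). In 3D the LS513 libraries, at 195 to 211 CPM, were above the HT29 libraries at 112 to 131 CPM, so the 2D order of these lines did not hold there.

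CD46 (ENSG00000117335) encodes membrane cofactor protein, the surface cofactor for CFI. In LS513 it was at 591, 614 and 510 CPM in 2D and 327, 314 and 395 CPM in 3D. The 3D libraries were below the 2D ones, and CD46 was 1.65-fold lower (log2 fold change -0.73, SE 0.09, adjusted p = 5.4e-06, edgeR). In HT29 it was at 260, 270 and 265 CPM in 2D and 211, 210 and 222 CPM in 3D. CD46 was 1.24-fold lower there without overlap (log2 fold change -0.31, SE 0.09, adjusted p = 0.012, edgeR). The adjusted p was 0.093 without the low-count filter, and 0.056, 0.067, 0.064 and 0.079 without HT29_2D replicate 1, HT29_2D replicate 2, HT29_3D replicate 1 or HT29_3D replicate 3. In HCT116 the libraries ran from 90.9 to 108 CPM, and the log2 fold change was 0.08 (95% interval -0.12 to 0.27). In LS174T they ran from 268 to 319 CPM with overlap (log2 fold change -0.04, 95% interval -0.23 to 0.15).

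The growth effect on CD46 differed between the lines (adjusted p = 0.00044, edgeR), and it was LS513 that stood lowest. LS513 minus HCT116 was -0.80 (SE 0.13, adjusted p = 0.00056) and LS513 minus LS174T -0.69 (SE 0.13, adjusted p = 0.0027). HT29 minus LS513 was 0.42 (SE 0.13, adjusted p = 0.039). In 2D LS513 was highest and HCT116 lowest, while LS174T and HT29 did not differ past the threshold (log2 ratio of HT29 over LS174T -0.20, adjusted p = 0.071, edgeR). In LS513, CD46 thus fell while CD55 and CD59 rose in the same libraries.

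Other genes of the complement system were read from a list of 52, of which 20 were tested. Here a gene was counted as above the floor in a group only if each of the 3 libraries was. By that rule 4 were above the floor in all 8 groups and 27 in no group. Among the 17 initiators, 10 were above the floor in no group by that rule, including the C1q chains C1QA, C1QB and C1QC. Some of the 10 exceeded it in single libraries, such as FCN3 with 3 to 14 counts in HCT116 grown in 3D. In HT29, 5 of the 20 tested genes were higher and 0 lower by edgeR, and 1 of those 5, ITGB2, held at most 3 counts in each HT29 library. Over all tested genes 21.1% were higher there, and the 5 ranged from 3 to 6 when each library was left out in turn, with 3 without HT29_2D replicate 1, HT29_2D replicate 2 or HT29_3D replicate 1. The 2 largest past the threshold with at least 1 CPM were CFD, the protease that activates CFB, from 1.46 ± 0.206 to 3.72 ± 0.546 CPM (a log2 change of 1.36, adjusted p = 0.0046), and C5AR1, the C5a receptor, from 0.734 ± 0.172 to 1.54 ± 0.467 CPM (1.11, adjusted p = 0.017). In LS513, 2 were higher (C1RL and ITGAX, which is described below) and 1 lower, against 13.7% and 9.9% of all tested genes. Without LS513_2D replicate 3, 4 were higher. C5, which starts the terminal pathway, fell from 10.6 ± 1.01 to 5.67 ± 0.177 CPM (a log2 change of -0.91, adjusted p = 0.0029, edgeR), and C1RL rose by 0.58 (adjusted p = 0.0013). The medians over the list were 0.23, 0.06, 0.43 and 0.25 in HT29, LS513, HCT116 and LS174T.

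In HCT116, 6 of the 20 were higher and 0 lower by edgeR, against 16.8% and 12.3% of all tested genes, and leaving out each library in turn gave 4 to 6 higher. ITGAX, a chain of a C3 fragment receptor of leukocytes, was at 0.181 ± 0.0571 CPM in 2D and 1.89 ± 0.848 CPM in 3D (3.35 on the log2 scale). It passed the low-count filter only through 3D libraries, so no test is given for it. ITGAX is among the 6 here and among the 2 in LS513, and its place in these counts supports nothing. The 5 leukocyte markers summed to 9.63 to 13.5 CPM in HCT116 grown in 2D and 36.2 to 47.9 CPM in 3D. PTPRC and CD3E were at or under the floor in each library. Nearly all of these sums was CD68, at 10.9 ± 2.06 CPM in 2D and 41.3 ± 5.53 CPM in 3D. LYZ was at 0.175 and 0.484 CPM, and CD14 at 0.226 and 0.188 CPM. The part of these markers in the result was not tested. C2 rose from 0.333 ± 0.106 to 1 ± 0.281 CPM in HCT116 (a log2 change of 1.58, adjusted p = 0.0016). In LS174T, 7 were higher and 1 lower, against 13.1% and 9.15% of all tested genes. The 7 went to 2 without LS174T_3D replicate 2 and with the line fitted alone, to 3 without LS174T_2D replicate 2 and with the replicate block, and to 4 without LS174T_2D replicate 1 or replicate 3. FCN2, a lectin pathway recognition protein, rose from 1.28 ± 0.275 to 4.86 ± 1.63 CPM (a log2 change of 1.92, adjusted p = 0.0016) and was listed at 0 in the other lines. C8G, a chain of the pore, rose from 0.723 ± 0.0663 to 2.27 ± 0.81 CPM (a log2 change of 1.64, adjusted p = 0.011, edgeR).

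The genes most like each member were taken by Pearson r of log2 CPM centred on the mean of each line, over the 24 libraries, as a description. CFB was most like AL645922.1 (r = 0.98), which shares its exons, then TSNARE1 and SLC39A7 (both 0.95). C3 was most like LINC01770 (0.86), LINC02313 (0.83) and IFI44L (0.82), an interferon-stimulated gene. CLU was most like PITRM1 (0.98), CAPN2 (0.97) and FLNA (0.96), and C4BPB like S100A2 (0.85), HMGA1 and TRIP10 (both 0.83). CD59 was like ANXA1 and IL18 (both 0.91), and CD55 most like EMP1 (0.92), PKIB (0.89) and BCAR3 (0.88). CD46 was most like SLC39A8 (0.88), SMTN (0.87) and UTP25 (0.86), and C1R like RPL22 and SLC25A1 (both 0.91) and AJM1 (0.90). Among the members, r was 0.83 for CD59 with CD55, 0.71 for CFB with C3 and -0.76 for CLU with CFB. These points share libraries and depth, and the large growth effects of HT29 weigh on each r. CFB was picked on its HT29 values, and the same values enter each r of CFB. C3 was at or under the floor in 11 of the 24 libraries, and its place among the tested members was set by the low-count filter. The r values of CFB and of C3, with members or with other genes, therefore support nothing.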

How the data were processed

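RNA of 4 CRC lines grown in 2D or 3D was sequenced by the authors as single reads from stranded poly(A) libraries. The authors trimmed the reads with Trim Galore 0.4.1, aligned them with STAR, removed reads that aligned more than once, and counted reads on exons with HTSeq 0.5.3. The deposited values are these raw counts per Ensembl gene, not normalized, in 191 sets. The submitters' processing notes name hg19, whereas the study's methods name an Ensembl release on GRCh38, and 57980 of the 58243 listed identifiers are in GENCODE 29, which was used for positions and lengths.

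The 8 technical replicates of a library were summed (7 for 1 HT29 library grown in 3D). edgeR 4.0.16 under R 4.3.3 was used on the counts (filterByExpr, TMM, robust quasi-likelihood fit of all 24 libraries, 8 groups), with Benjamini-Hochberg adjustment over 19387 genes and a threshold of 0.05. SE and 95% intervals are Wald values from the same fit. Growth effects were compared between lines by interaction contrasts. DESeq2 1.42.0, its size factors, no low-count filter, a replicate block, each line alone, technical replicate d left out, the longest transcript as length and each library left out in turn were alternatives. The use of AL645922.1 counts was chosen after seeing the data. Each member had 1 identifier, so summing over identifiers changed nothing. Library totals of 18723942 to 34277421 counts set the precision.

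The members and lists were chosen with earlier results of these data known. The genes named are the 9 members, for each line the 2 genes of the list of 52 with the largest absolute log2 fold change among those past the threshold (at least 1 CPM in the growth condition with more), and for each tested member the 3 genes with the highest r. Not every gene that this rule names is reported here. AL645922.1, C2 beside CFB, C4BPA, the C1q chains and ITGB2 were named after their values were seen. Same-numbered libraries of the 2 growth conditions did not deviate together (correlations of -0.15 to 0.09 over 11 pairs).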

Additional observations from a re-analysis of the deposited data

Results flagged for a closer look

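The growth effect differed between the 4 lines for 5 of the 7 members tested over them (CFB left out), against 17.1% of all tested genes. The test was an interaction test in edgeR with Benjamini-Hochberg adjustment. The 7 include C3, which passed the low-count filter only through 3D libraries. The adjusted p was 4.2e-07 for CD59, 1.2e-06 for CLU, 1.1e-05 for CD55, 0.00044 for CD46 and 0.004 for C4BPB. For CFB, which was not tested in HT29, it was 0.03 over LS513, HCT116 and LS174T, where 8.38% of all genes passed. HT29 was the line that went down where others went up for CD55 and CD59, LS513 the line with the largest decrease for CD46, and HCT116 the line of the 3 with the largest increase for CFB.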

How the results depend on the processing

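There were 362 values of a member's log2 fold change under an alternative, among them AL645922.1 counts in place of CFB. Of these, 327 kept their direction and their side of the threshold, 10 lost the call, 10 gained it and 15 changed sign, none of which was a called change. CFB in HT29 has no test, so it has no side of the threshold in these counts or in the 30 below. It was counted as kept where it moved by less than its SE, or kept its sign with AL645922.1 counts. With the replicate block, which joins same-numbered libraries that do not deviate together, 2 of 30 calls changed (C3 in HT29, adjusted p = 0.072, and CD46 in HT29, 0.084), members higher in HT29 went to 0, list genes higher to 3 in HT29 and 3 in LS174T, and the adjusted p to 0.12 for CFB over 3 lines and 0.099 for C4BPB. With all genes tested, members higher were 4 in LS513 and 2 in LS174T and list genes higher 4 in LS513. With each line fitted alone, list genes lower in HT29 were 1, list genes higher in LS174T 2 and members lower in LS174T 0. DESeq2 called 2 members higher in LS174T. Leaving out each library in turn, members higher ranged from 1 to 2 in HT29 and 0 to 2 in LS174T, list genes higher from 3 to 6 in HT29, 2 to 4 in LS513 and 2 to 7 in LS174T, list genes lower from 0 to 1 in HT29 and in LS174T, and the adjusted p of CFB over 3 lines from 0.0065 to 0.12. Sign changes were of values that had not passed the threshold: leaving out libraries gave -1.09 to 3.93 for C3 and -0.22 to 0.23 for CFB in LS513, -0.52 to 0.12 for C4BPB, -0.1 to 0.02 for CD46 and -0.07 to 0.02 for CD59 in LS174T, and 0.00 to 0.13 for CD46 in HCT116. Without technical replicate d, CFB in LS513 was at 0.02 and C4BPB in LS174T at 0.01. By longest transcript, 5 of 9 members kept their place in LS513 grown in 3D and 7 of 9 in HCT116 grown in 2D, in HCT116 grown in 3D and in LS174T grown in 2D. The causes were not tested. Depth limits CFI and C3 most, with 19 and 11 of the 24 libraries at or under the floor.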

Other observations

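C1RL, which encodes a protease related to C1r and shares exonic bases with C1R, was higher in 3D in all 4 lines. It went from 19.3 ± 2.2 to 38.2 ± 3.43 CPM in HT29 (adjusted p = 2.3e-06, edgeR), from 19.8 ± 1.39 to 29.6 ± 1.73 CPM in LS513, from 12.1 ± 1.62 to 26.4 ± 3.76 CPM in HCT116 (adjusted p = 6.5e-07) and from 15.2 ± 1.7 to 19.7 ± 0.51 CPM in LS174T (adjusted p = 0.034). PROS1, protein S, which binds the C4b-binding protein in blood, rose in HT29 from 17.1 ± 2.59 to 34.3 ± 4.78 CPM (adjusted p = 7.7e-05, edgeR) and in HCT116 from 11 ± 1.36 to 18.7 ± 0.723 CPM (adjusted p = 0.0022). CR2, the receptor of C3d on B cells, was at 8.33 ± 1.17 CPM in HCT116 grown in 2D and listed at 0 in the other lines. These 3 genes were named after their values were seen.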
